A study of Homo sapiens with 6 samples.

Results

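The NODAL signalling genes described here, 7 of the 18417 genes tested, were followed across a course of human embryonic stem cell differentiation. They were the ligands NODAL and GDF3, the co-receptor CRIPTO (also written TDGF1), the transcription factor FOXH1, and the secreted inhibitors LEFTY1, LEFTY2 and CER1. The genes were chosen by name, with earlier results of these data known. Each was read through the probe set annotated to it alone with the highest mean over the 6 arrays. NODAL is a secreted ligand of the TGF-beta family that binds activin receptors together with the co-receptor CRIPTO, after which SMAD2 and SMAD3 are phosphorylated and enter the nucleus, where FOXH1 helps them to bind DNA. Among the genes switched on in this way are NODAL itself and LEFTY1 and LEFTY2, whose products block the ligand and its co-receptor, so that the pathway carries both positive and negative feedback. In human embryonic stem cells, signalling through SMAD2 and SMAD3 is known for its part in upholding the pluripotent state, and in the embryo NODAL patterns the primitive streak, mesoderm and endoderm.

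The established embryonic stem cell line WA09 was profiled at 3 stages, with 2 arrays for each. Undifferentiated cells (hESC) were kept in StemPro defined medium. ISL1-positive nascent mesoderm cells (INM) had grown for 4 days in defined medium with 25 ng/ml of Wnt3a and 50 ng/ml of BMP4, and smooth muscle cells (SMC) had grown with both factors for 21 days. All groups came from this single line, the labels do not say how ISL1-positive cells were obtained, and nothing states that the 2 replicates of a group were separate cultures, so p-values measure the spread between arrays only, which may be technical. Total RNA was hybridised to Affymetrix arrays, and levels are RMA signals on the log2 scale. Levels of different probe sets are not comparable with each other. Whether the RNA came from whole cultures is not stated in the labels used here. In RNA pooled from many cells, fewer cells of a type and less RNA per cell cannot be told apart.

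The labels were set beside marker genes. These were chosen with earlier results of these data known, so they give no independent check of the labels. Of 7 measured stem cell markers, 5 were called lower in INM than in hESC and 7 were called lower in SMC than in hESC. All 6 mesoderm markers were called higher in INM than in hESC, ISL1 among them. Of 5 markers of trophoblast and amnion, 4 were called higher in INM than in hESC as well (TFAP2A, GATA3, KRT7 and VTCN1), with a median change of 3.10 over the 5, and their part in the results below was not tested. In SMC against hESC 5 of 6 smooth muscle markers were called higher. MYH11, a myosin that marks mature smooth muscle, did not pass the test in SMC, at 5.59 and 5.43 against 5.77 and 5.51 in hESC. The INM arrays stood apart from each other more than those of the other groups. In INM 700 genes differed by over 1 between the 2 arrays, against 16 in hESC and 11 in SMC. A guide level of 5.04 was used for background, which is the median of the unnamed probe sets on the array where that median was lowest. A group mean under it is not shown to lie above background, and no fold is given for it.

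Most NODAL signalling genes were lower after differentiation than in stem cells. CRIPTO fell by the largest amount, and NODAL, GDF3 and FOXH1 were also called lower by day 4. LEFTY1 and LEFTY2 were called lower in SMC than in hESC, and CER1 was not called in any comparison. In INM against hESC, 4 of the 7 genes were called lower (CRIPTO, NODAL, GDF3 and FOXH1) and 0 higher, where 14.8% of all 18417 genes were called lower and 18.9% higher. In SMC against hESC, 6 of 7 were called lower (all but CER1) and 0 higher, where 17.6% of all genes were called lower and 19.7% higher. In SMC against INM, 1 of 7 was called lower (LEFTY2) and 0 higher, where 11.1% of all genes were called lower and 9.94% higher. The median change of the 7 genes was -1.01 in INM against hESC, -1.43 in SMC against hESC and -0.30 in SMC against INM, beside -0.03, -0.05 and -0.02 over all genes tested. All arrays of a group lay below those of its comparison group for 6 of 7 genes in INM against hESC (34.9% of all genes), for 6 of 7 in SMC against hESC (40.3% of all genes) and for 3 of 7 in SMC against INM (32.6% of all genes). INM and SMC were each compared with the same hESC arrays, and so these counts are not independent. A test for a difference between any of the stages called 6 of the 7 genes, where it called 45.5% of all genes, and CER1 was the exception (adjusted p = 0.315).

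**Figure D1:**
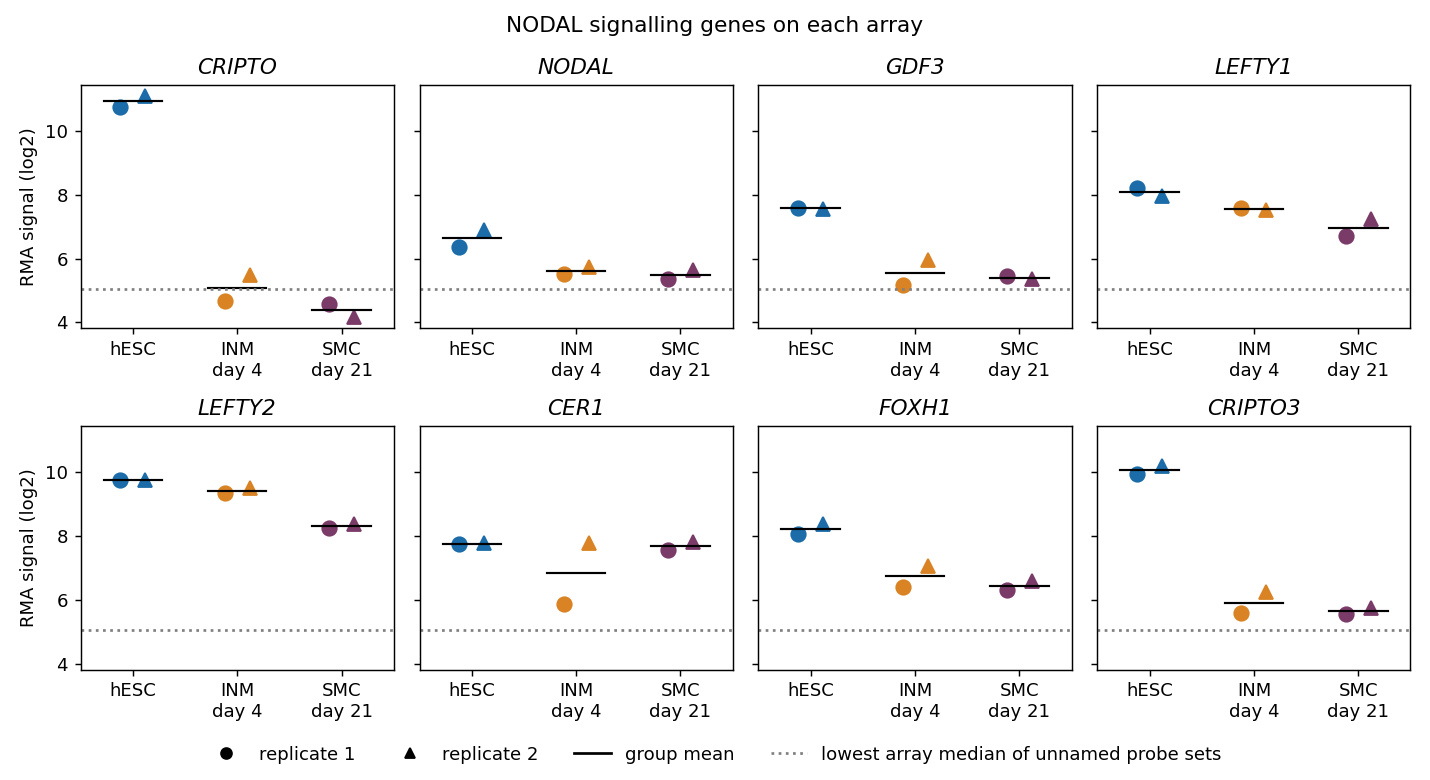
RMA signal (log2, vertical axis) of the 7 NODAL signalling genes and of CRIPTO3 on each of the 6 arrays, by stage. Circles are replicate 1, triangles replicate 2, black lines group means and the dotted line the guide level for background (5.04). CRIPTO stands near 11 in hESC, on either side of the dotted line in INM and under it in SMC, LEFTY2 steps down mainly between INM and SMC, and CER1 is low on INM replicate 1 alone.

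Promoter sequences were taken from RefSeq on build GRCh38.p14 for 4 of the 7 genes (CRIPTO, NODAL, GDF3 and CER1), which are 3 that were lower by day 4 and the 1 that was called in no comparison. Each line gives the 250 bases before an annotated start, in the direction of the gene and 5′ to 3′. CRIPTO has a pair of annotated starts in that table and the downstream one is shown, since the window of the upstream one held no match to any motif searched. Capitals mark matches on either strand to AATNNACA, a loose form of the FOXH1 site, to CAGAC, a SMAD box, or to CATTGT, the core bound by SOX factors. No match of one motif overlapped another.
CRIPTO, chr3:46577538-46577787, plus strand: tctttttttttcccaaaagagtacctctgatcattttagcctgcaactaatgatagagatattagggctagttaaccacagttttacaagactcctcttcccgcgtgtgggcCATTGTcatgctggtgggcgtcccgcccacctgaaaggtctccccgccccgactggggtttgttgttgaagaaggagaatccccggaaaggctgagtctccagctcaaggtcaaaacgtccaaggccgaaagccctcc
NODAL, chr10:70441682-70441931, minus strand: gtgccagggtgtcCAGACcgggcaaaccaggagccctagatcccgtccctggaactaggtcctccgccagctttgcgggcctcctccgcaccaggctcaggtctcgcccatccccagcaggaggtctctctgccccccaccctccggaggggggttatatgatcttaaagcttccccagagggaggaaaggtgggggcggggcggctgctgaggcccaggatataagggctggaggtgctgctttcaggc
GDF3, chr12:7695776-7696025, minus strand: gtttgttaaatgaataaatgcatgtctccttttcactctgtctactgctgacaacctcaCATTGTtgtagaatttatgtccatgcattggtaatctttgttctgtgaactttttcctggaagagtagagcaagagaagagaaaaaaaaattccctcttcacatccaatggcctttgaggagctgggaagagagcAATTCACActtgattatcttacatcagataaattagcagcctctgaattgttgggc
CER1, chr9:14722734-14722983, minus strand: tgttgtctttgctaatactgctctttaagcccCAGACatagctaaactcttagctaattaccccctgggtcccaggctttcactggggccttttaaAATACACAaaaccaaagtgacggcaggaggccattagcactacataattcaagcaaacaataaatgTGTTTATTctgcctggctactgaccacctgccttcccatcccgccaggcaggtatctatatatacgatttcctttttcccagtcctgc
A CATTGT match stood at -138 to -133 from the start in CRIPTO and at -191 to -186 in GDF3. The form AATNNACA was matched at 1 place in GDF3, from -56 to -49, and at 2 places in CER1, at -154 to -147 and -88 to -81. CAGAC was matched at -237 to -233 in NODAL and at -218 to -214 in CER1. Over 35116 promoter windows of the same length, 9.88% held AATNNACA, 38.0% held CAGAC and 9.29% held CATTGT. The octamer ATGCAAAT was also searched, matched none of these windows and stood in 1.63% of all windows. These matches are letters in a short window and were not tested as binding sites.

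CRIPTO, the membrane-anchored co-receptor without which NODAL signals poorly, had the largest change of the 7 genes. Its signal (probe set 8079422) was 10.74 and 11.08 on the hESC arrays, 4.66 and 5.50 on the INM arrays and 4.59 and 4.16 on the SMC arrays. The hESC arrays lay above all others, and the INM arrays lay above both SMC arrays. The change was -5.83 in INM against hESC (SE 0.29, 95% interval -6.54 to -5.12, adjusted p = 8.4e-05), which ranked 4 from the lowest among the 18417 genes. INM averaged 5.08 ± 0.59 and hESC 10.91 ± 0.24 (SD, n = 2 each). In SMC the mean of 4.38 ± 0.30 lay under the guide level, so the measured change against hESC, -6.53 (SE 0.29, adjusted p = 3.1e-05), is a difference from background and does not give the size of the fall. SMC and INM did not differ beyond their spread, at -0.70 (SE 0.29, adjusted p = 0.146), although without INM replicate 1 this change was -1.12 and was called (adjusted p = 0.00540).

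CRIPTO3 is a near-identical copy of CRIPTO, so the probes of either gene may bind the transcript of the other, and the level of neither copy is certain. CRIPTO3 (probe set 8169385) had 9.92 and 10.18 on the hESC arrays, 5.57 and 6.24 on the INM arrays and 5.55 and 5.76 on the SMC arrays. Its hESC arrays again stood alone and its INM and SMC arrays overlapped. It was lower by 4.15 in INM than in hESC (log2 change -4.15, SE 0.23, adjusted p = 1.1e-04) and its change in SMC against hESC was -4.40 (SE 0.23, adjusted p = 4.7e-05). In SMC against INM its change was -0.25 (SE 0.23, adjusted p = 0.495). Without INM replicate 1 that change was -0.58 and called (adjusted p = 0.0260).

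NODAL, the ligand, gave a low signal at every stage. Its probe set (7934156) read 6.36 and 6.90 on the hESC arrays, 5.51 and 5.73 on the INM arrays and 5.34 and 5.64 on the SMC arrays. Both hESC arrays were the highest, and INM and SMC overlapped. The change was -1.01 in INM against hESC (SE 0.21, 95% interval -1.51 to -0.51, adjusted p = 0.0119), a 2.02-fold lower signal, and -1.14 in SMC against hESC (SE 0.21, adjusted p = 0.00622). In SMC against INM it was -0.12 (SE 0.21, 95% interval -0.63 to 0.38, adjusted p = 0.724). The INM and SMC means of NODAL, 5.62 and 5.49, lay not far above the guide level of 5.04. The size of its fall, and any further fall after day 4, could therefore be measured only in part. Without hESC replicate 2, the higher of that pair, the change in INM was -0.74 and lost its call (adjusted p = 0.0618), and without SMC replicate 1 the change in SMC against hESC was -0.99 and lost its call (adjusted p = 0.0557).

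GDF3 encodes a TGF-beta family ligand related to NODAL that uses the same co-receptor and is expressed in pluripotent cells. It read 7.58 and 7.56 on the hESC arrays, 5.16 and 5.94 on the INM arrays and 5.44 and 5.37 on the SMC arrays (probe set 7960828). The hESC arrays agreed closely and stood apart, while the INM pair lay on either side of the SMC pair. The change was -2.02 in INM against hESC (SE 0.24, adjusted p = 0.00151), a 4.06-fold lower signal, and -2.17 in SMC against hESC (SE 0.24, adjusted p = 8.0e-04), a 4.49-fold lower signal. Between SMC and INM it was -0.15 (SE 0.24, 95% interval -0.72 to 0.43, adjusted p = 0.715). That small difference was called lower without INM replicate 1, at -0.54 (adjusted p = 0.0122), and stood at 0.24 without INM replicate 2 (adjusted p = 0.191).

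FOXH1 encodes the forkhead factor that recruits activated SMAD2 and SMAD3 to the genes they switch on. Its signal (probe set 8153828) was 8.05 and 8.36 on the hESC arrays, 6.40 and 7.07 on the INM arrays and 6.29 and 6.57 on the SMC arrays. The order of means was hESC, INM, SMC, and the last 2 overlapped. In INM against hESC the change was -1.47 (SE 0.24, 95% interval -2.05 to -0.89, adjusted p = 0.00505), a 2.77-fold lower signal, and in SMC against hESC it was -1.77 (SE 0.24, adjusted p = 0.00184), a 3.42-fold lower signal. SMC differed from INM by -0.30 (SE 0.24, adjusted p = 0.433). Without INM replicate 1 this difference was -0.63 and called (adjusted p = 0.0294).

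The LEFTY genes encode secreted inhibitors that are targets of the pathway they block. They are close paralogs, so probes for one may also bind the transcript of the other, and their values may not be independent. LEFTY1 (probe set 7924663) had 8.20 and 7.95 on the hESC arrays, 7.58 and 7.53 on the INM arrays and 6.70 and 7.23 on the SMC arrays. The groups did not overlap and stepped down in the order hESC, INM, SMC. Its change in SMC against hESC was -1.11 (SE 0.19, 95% interval -1.57 to -0.65, adjusted p = 0.00489), a 2.15-fold lower signal. Neither step alone was called, at -0.52 in INM against hESC (SE 0.19, adjusted p = 0.0820) and -0.59 in SMC against INM (SE 0.19, adjusted p = 0.0757). With each array centred on its median over the 18417 genes tested, the change in INM was -0.60 and called (adjusted p = 0.0496). That centring moved every change in INM against hESC by -0.08. Medians over all probe sets were higher in hESC (6.68 and 6.66) than in INM (6.50 and 6.46), and centring on those was not tried. With quantile normalization the LEFTY1 change in INM was -0.71 and called (adjusted p = 0.0328).

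LEFTY2 (probe set 7924682) had 9.75 and 9.73 on the hESC arrays, 9.34 and 9.48 on the INM arrays and 8.25 and 8.37 on the SMC arrays. The pairs were tight and no group overlapped another. In SMC against INM it was lower by 1.10 (log2 change -1.10, SE 0.12, adjusted p = 0.00163), a 2.14-fold lower signal, and in SMC against hESC its change was -1.43 (SE 0.12, adjusted p = 2.4e-04), a 2.70-fold lower signal. The change at day 4 was -0.33 in INM against hESC (SE 0.12, 95% interval -0.61 to -0.05, adjusted p = 0.0687). It was called lower with each array centred on its median over the genes tested, at -0.42 (adjusted p = 0.0312). With quantile normalization it was -0.59 and called (adjusted p = 0.00913), and without INM replicate 2 it was -0.41.

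CER1 encodes cerberus, a secreted antagonist that binds NODAL and BMP proteins and is made by endoderm in the embryo. Its signal (probe set 8160163) was 7.75 and 7.77 on the hESC arrays, 5.87 and 7.79 on the INM arrays and 7.56 and 7.80 on the SMC arrays. Of the 6 arrays 5 lay between 7.56 and 7.80, and INM replicate 1 stood below them. The change was -0.93 in INM against hESC (SE 0.54, 95% interval -2.23 to 0.37, adjusted p = 0.233), 0.85 in SMC against INM (SE 0.54, adjusted p = 0.324) and -0.08 in SMC against hESC (SE 0.54, 95% interval -1.38 to 1.22, adjusted p = 0.925). Its direction at day 4 rested on 1 array. Without INM replicate 1 the change in INM against hESC was 0.03 (adjusted p = 0.881), and without INM replicate 2 it was -1.88 and called lower (adjusted p = 4.7e-05). Likewise the change in SMC against INM was -0.11 without INM replicate 1 (adjusted p = 0.612) and 1.81, called higher, without INM replicate 2 (adjusted p = 9.4e-05). Of 7 endoderm markers 1 was called, CXCR4, which is also made by other cell types. It had 7.49 and 7.52 in INM, against 6.54 and 6.74 in hESC, and 8.71 and 8.67 in SMC, and was called higher in all 3 comparisons. SOX17 and FOXA2 were not called in any comparison, at 7.29 and 7.48 in INM against 7.19 and 6.93 in hESC for SOX17 and at 6.39 and 6.75 in INM against 6.76 and 6.37 in hESC for FOXA2.

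**Figure D2:**
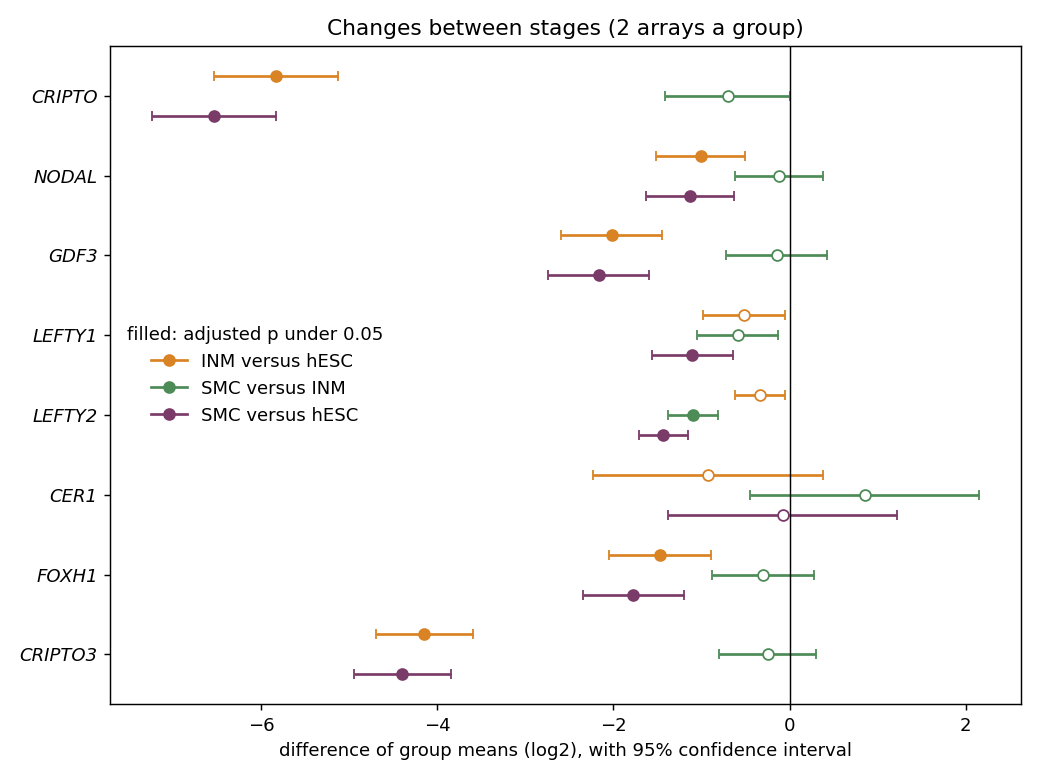
Differences of group means (log2, horizontal axis) with 95% confidence intervals for the 7 NODAL signalling genes and CRIPTO3 in the 3 comparisons, 2 arrays a group. Filled circles are called at an adjusted p under 0.05. The interval of CRIPTO in INM against hESC runs from -6.54 to -5.12, while every interval of CER1 spans 0.

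The timing of the falls was compared with a contrast added after the data were seen, the change in SMC against INM less the change in INM against hESC, which called 24.2% of all genes. It was positive and called for CRIPTO, at 5.13 (SE 0.51, adjusted p = 0.00134), and for GDF3, at 1.87 (SE 0.41, adjusted p = 0.0215). The measured fall of GDF3 was thus larger by day 4 than after it. Its INM arrays (5.16 and 5.94) and its SMC mean (5.41) lay not far above the guide level of 5.04. A further fall of GDF3 after day 4 could therefore be measured only in part, and the same held for NODAL. For CRIPTO the SMC mean lay under the guide level and the INM mean of 5.08 close to it, so a further fall after day 4 could hardly be measured and its value gives no timing. For LEFTY2 it was negative, at -0.76 (SE 0.20, adjusted p = 0.0376), so its larger fall came after day 4. The LEFTY2 call was lost with either scaling, at -0.64 with arrays centred on the median (adjusted p = 0.0575) and at -0.42 with quantile normalization (adjusted p = 0.175), with array weights, with the replicate block and in 5 of the 6 fits with 1 array left out. The GDF3 call was lost in the 4 fits without 1 hESC or 1 SMC array, where its adjusted p lay between 0.0716 and 0.0800. NODAL, at 0.89 (SE 0.36, adjusted p = 0.125), FOXH1, at 1.17 (SE 0.42, adjusted p = 0.0888), LEFTY1, at -0.07 (SE 0.33, adjusted p = 0.900), and CER1, at 1.78 (SE 0.94, adjusted p = 0.219), were not called. FOXH1 was called with the replicate block (adjusted p = 0.0284) and, at 1.84, without INM replicate 2 (adjusted p = 0.00472). CER1 was called without INM replicate 2, at 3.69 (adjusted p = 6.2e-05), and stood at -0.14 without INM replicate 1 (adjusted p = 0.719).

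The 2 INM arrays differed for several of these genes. INM replicate 2 was above INM replicate 1 for 6 of the 7 genes, where it was above for 51.2% of all genes, and LEFTY1 was the exception, at a difference of -0.05. The differences, replicate 2 minus replicate 1, were 1.91 for CER1, 0.84 for CRIPTO, 0.78 for GDF3, 0.67 for FOXH1, 0.22 for NODAL and 0.15 for LEFTY2. By size the CER1 difference ranked 127 among 18417 genes, and that of CRIPTO 1058. Other genes differed between these arrays too. Of the stem cell markers LIN28A was higher on replicate 2 by 1.37, while SOX2 differed by 0.18 and PRDM14 by -0.34. GATA6, a marker of endoderm and heart mesoderm, was higher on replicate 2 by 1.97, at 10.11 against 8.15 on replicate 1. INHBA, which encodes the activin subunit beta A, was lower on replicate 2 by 3.26 (replicate 2 minus replicate 1 of -3.26). Over the lists, 4 of 7 stem cell markers, 5 of 6 mesoderm markers, 6 of 7 endoderm markers and 1 of 5 trophoblast and amnion markers were higher on replicate 2. The summed linear signal of the 7 endoderm markers was 832 and 1708 in INM, against 764 and 631 in hESC, and 1219 on each SMC array. GATA6 carried most of the difference in INM, and the other 6 markers differed between the INM arrays by -0.45 to 0.36 on the log2 scale. AFP, an endoderm marker, lay under the guide level on every array. The summed linear signal of the 7 stem cell markers was 3398 and 5265 in INM, against 14955 and 15179 in hESC. LIN28A, at 10.39 and 11.76 on the INM arrays, carried this difference in INM. The other stem cell markers in this sum differed between the INM arrays by -0.55 to 0.47 on the log2 scale, in both directions. Of these, SOX2 (5.63 and 5.81), PRDM14 (5.71 and 5.37) and USP44 (4.83 and 5.24) lay near the guide level in INM. A difference in them could therefore be measured only in part. DPPA4, ZFP42 and DNMT3B lay well above it. Probe sets for POU5F1 and NANOG, each shared with related genes, were outside the sum. All were higher on replicate 2, such as 7.70 and 10.07 for POU5F1 and 5.95 and 7.69 for NANOG. The part of the cells' makeup in the difference between these arrays was not tested.

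**Figure D3:**
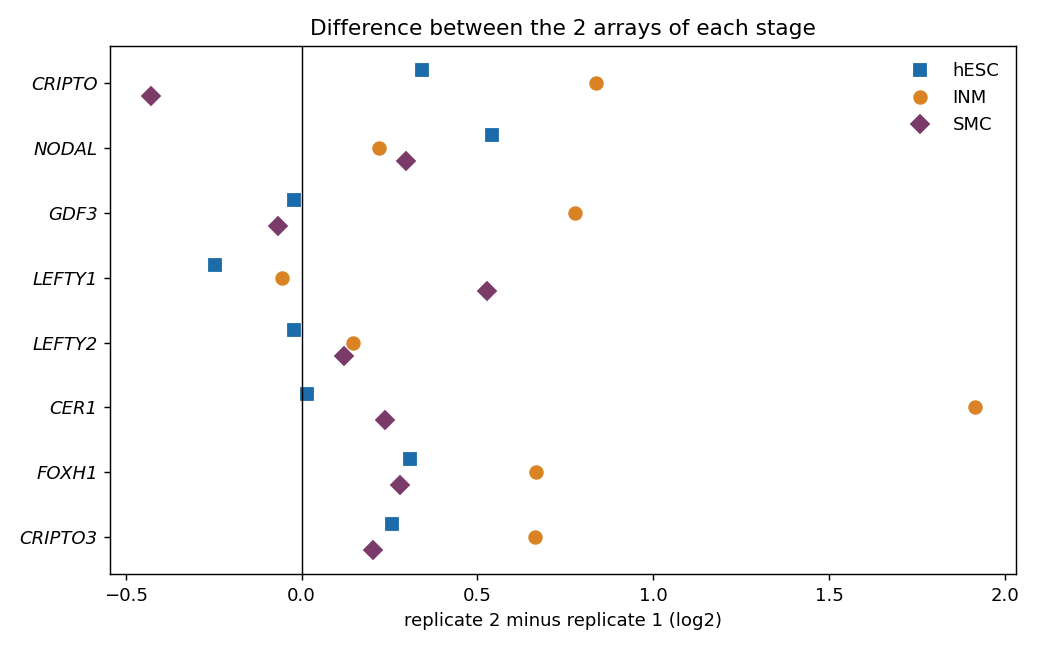
Signal of replicate 2 minus replicate 1 (log2, horizontal axis) in hESC, INM and SMC for the 7 NODAL signalling genes and CRIPTO3. The INM difference of CER1, 1.91, lies far from the others, and the INM differences of CRIPTO, GDF3 and FOXH1 lie between 0.67 and 0.84.

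Genes with the most similar profiles over the 6 arrays were found by the root mean square difference of log2 profiles, each centred on its own mean. With 6 arrays in 3 pairs, likeness mostly reflects the 3 group means. For CRIPTO the nearest were MIR302A, the gene of a stem cell microRNA (0.40, Pearson r = 0.993), SOX2, a core transcription factor of the pluripotent state (0.41, r = 0.993), and IDO1, an enzyme of tryptophan breakdown (0.46, r = 0.988). MIR302A (2.30 to 2.96) and IDO1 (4.13 to 4.42) lay under the guide level of 5.04 on all INM and SMC arrays. CRIPTO lay under it on INM replicate 1 and both SMC arrays, so their likeness after hESC is partly one of background levels. The nearest to NODAL were the histone gene H3C1 (0.08), QRFPR and SNRPA1. The nearest to GDF3 were GABRQ (0.08), the repair gene XRCC2 and SLC27A2, and to FOXH1 they were SLC4A11 (0.13), PRUNE2 and MEGF10. LEFTY1 had HAS3 (0.07), USP32P1 and PPP2R2C beside it, and LEFTY2 had CYYR1 (0.07), TMEM64 and B3GNT7. For CER1 they were TFRC, the transferrin receptor (0.14, r = 0.982), TNIK (0.18) and AK5 (0.22). Each of these too was lowest on INM replicate 1, which follows from choosing them by their likeness to CER1. TFRC read 9.57 and 9.79 on the hESC arrays, 7.97 and 9.91 on the INM arrays and 9.59 and 9.56 on the SMC arrays. None of the members was among another member's nearest because the search left members out. Between members the smallest root mean square difference was 0.26, for LEFTY1 and LEFTY2 (r = 0.919), and the next was 0.27, for FOXH1 and GDF3 (r = 0.981). The correlations are descriptions over 6 arrays that share the 3 stages.

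Other genes of the NODAL and activin pathway were called in both directions. Of 40 other listed genes, 34 had a probe set of their own. In INM against hESC 10 were called higher and 4 lower, beside 18.9% and 14.8% of all genes, with a median change of 0.26. In SMC against hESC 9 were called higher and 7 lower, beside 19.7% and 17.6% of all genes, with a median of -0.08. Between SMC and INM 1 was called higher and 8 lower in SMC, beside 9.94% and 11.1% of all genes, with a median of -0.22. Calls that held whichever array was dropped numbered 4 of 10 rises and 0 of 4 falls in INM against hESC, 5 of 9 rises and 3 of 7 falls in SMC against hESC, and 0 of 1 rise and 2 of 8 falls in SMC against INM.

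Among ligands and their convertases, INHBA had 10.47 and 7.21 in INM, against 6.58 and 6.56 in hESC, and 9.80 and 9.79 in SMC. Every INM and SMC array lay above hESC, and the INM pair was split. INHBA was called higher in SMC than in hESC, at 3.23 (SE 0.91, adjusted p = 0.0315), and was not called in INM against hESC, at 2.26 (SE 0.91, adjusted p = 0.100). Without 1 hESC or 1 SMC array the call in SMC was lost, with adjusted p between 0.132 and 0.138. In INM it was called without either INM array, at 0.64 without replicate 1 (adjusted p = 0.00454) and 3.89 without replicate 2 (adjusted p = 1.0e-06). In SMC against INM its sign followed the INM array used, at 2.59 without INM replicate 1 and -0.67 without INM replicate 2, both called. INHBB, the beta B subunit of activin, fell by 0.50 in INM against hESC (SE 0.11, adjusted p = 0.0135), a call that ended without either hESC array. FURIN, a proprotein convertase that can cut the NODAL precursor, was called higher in INM than in hESC, at 2.12 (SE 0.12, adjusted p = 1.2e-04), and in SMC than in hESC, at 1.66 (SE 0.12, adjusted p = 1.7e-04). PCSK6, another convertase of NODAL, was called higher too, at 0.69 in INM (SE 0.13, adjusted p = 0.00877) and 0.83 in SMC (SE 0.13, adjusted p = 0.00350). The PCSK6 call in INM ended without hESC replicate 2, at 0.55 (adjusted p = 0.0547).

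The receptors differed among themselves. ACVR2B, a type II receptor of activin and NODAL, had 6.03 and 6.15 in SMC, against 7.38 and 8.05 in INM and 8.09 and 8.20 in hESC. Both SMC arrays were the lowest, and its change was -1.62 in SMC against INM (SE 0.22, adjusted p = 0.00378) and -2.06 in SMC against hESC (SE 0.22, adjusted p = 6.6e-04). The type I receptor ACVR1C was called lower in INM than in hESC, at -0.55 (SE 0.12, adjusted p = 0.0143), and in SMC than in hESC, at -0.78 (SE 0.12, adjusted p = 0.00292). Its call in INM was lost without either hESC array. ACVR1B, the other type I receptor for NODAL, and the type II receptor ACVR2A were not called in any comparison, with ACVR1B at 8.13 and 8.31 in INM and 7.97 and 7.97 in hESC.

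Of the SMAD proteins that carry the signal, SMAD3 was called higher than in hESC at both later stages. It had 9.92 and 9.55 in INM, against 7.65 and 7.74 in hESC, with a change of 2.04 (SE 0.15, adjusted p = 2.8e-04), and 2.19 in SMC against hESC (SE 0.15, adjusted p = 1.4e-04). SMAD2 was called higher in INM on the probe set with the higher mean, at 0.38 (SE 0.12, adjusted p = 0.0487), and this call was not kept in 11 of 14 other settings. Averaged with its second probe set, which moved the other way, its change was -0.04 (adjusted p = 0.840). SMAD4, the partner shared with BMP signalling, was not called in any comparison. TRIM33, a SMAD-binding ubiquitin ligase, was called lower in SMC than in hESC, at -0.70 (SE 0.11, adjusted p = 0.00341), and lower in SMC than in INM, at -0.64 (SE 0.11, adjusted p = 0.00971), the second only with both SMC arrays present. DRAP1, a repressor that in mice limits the response to NODAL, was called higher in SMC than in hESC, at 0.80 (SE 0.15, adjusted p = 0.00739), and than in INM, at 0.65 (SE 0.15, adjusted p = 0.0299). Without hESC replicate 1 the first DRAP1 call ended (adjusted p = 0.0583), as it did without SMC replicate 1 (adjusted p = 0.0623), and the second was lost without any 1 of the hESC or SMC arrays.

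Among inhibitors BAMBI gave the largest called rise of the 34 genes in both comparisons with hESC. This decoy receptor, which is also a BMP and Wnt target, had 12.42 and 12.51 in INM, against 8.98 and 8.94 in hESC, and 12.30 and 12.23 in SMC. The INM and SMC arrays all lay above both hESC arrays, and the change was 3.50 in INM against hESC (SE 0.11, adjusted p = 1.7e-05) and 3.30 in SMC against hESC (SE 0.11, adjusted p = 1.8e-05). SMAD7, an inhibitory SMAD induced by TGF-beta family signals, was called higher in INM, at 1.57 (SE 0.12, adjusted p = 2.8e-04), and in SMC, at 0.80 (SE 0.12, adjusted p = 0.00259), against hESC. Further rises in INM against hESC were those of PMEPA1 (1.12), SKI (0.68) and PPM1A (0.44), and TGIF1 was called lower at -0.47. FSTL3 (1.60) and PMEPA1 (1.09) were called higher in SMC than in hESC, and SKIL, a SMAD co-repressor, lower at -0.98. In SMC against INM SMAD7 (-0.77), SKI (-0.60) and SKIL (-1.03) were called lower. None of the calls of PMEPA1, SKI, PPM1A, TGIF1, FSTL3 and SKIL held whichever array was dropped. The SMAD7 call in SMC against INM did not hold either, while its calls against hESC did. The PMEPA1 arrays of INM were split, at 8.66 and 7.62, and its change in SMC against INM, -0.03 (adjusted p = 0.958), was 0.49 without INM replicate 1 and -0.55 without INM replicate 2, both called. FST, DAND5, TGIF2 and DACT2 were not called in any comparison.

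Among 9 measured genes of the primitive streak and endoderm that NODAL and activin can switch on, 1 was called higher and 1 lower in INM against hESC (18.9% and 14.8% of all genes), 0 higher and 3 lower in SMC against hESC (19.7% and 17.6% of all genes), and 0 higher and 2 lower in SMC against INM (9.94% and 11.1% of all genes). In INM against hESC MIXL1, a streak homeobox gene, was called higher at 0.56 (SE 0.14, adjusted p = 0.0263) and MESP1 lower at -0.43 (SE 0.11, adjusted p = 0.0262), and both calls ended without any 1 of the hESC or SMC arrays. MIXL1 had 6.30 and 6.31 in SMC, against 7.19 and 7.55 in INM, a change of -1.06 (SE 0.14, adjusted p = 0.00394). In SMC against hESC MIXL1 (-0.51), TBXT (-0.42) and MESP1 (-0.38) were called lower, and none of these 3 calls was kept without 1 hESC or 1 SMC array. WNT3 was called lower in SMC than in INM, at -0.97 (SE 0.21, adjusted p = 0.0204), and this call too was lost without any 1 of the hESC or SMC arrays. GSC, EOMES, LHX1, FOXA2 and SOX17 were not called in any comparison.

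**Figure D4:**
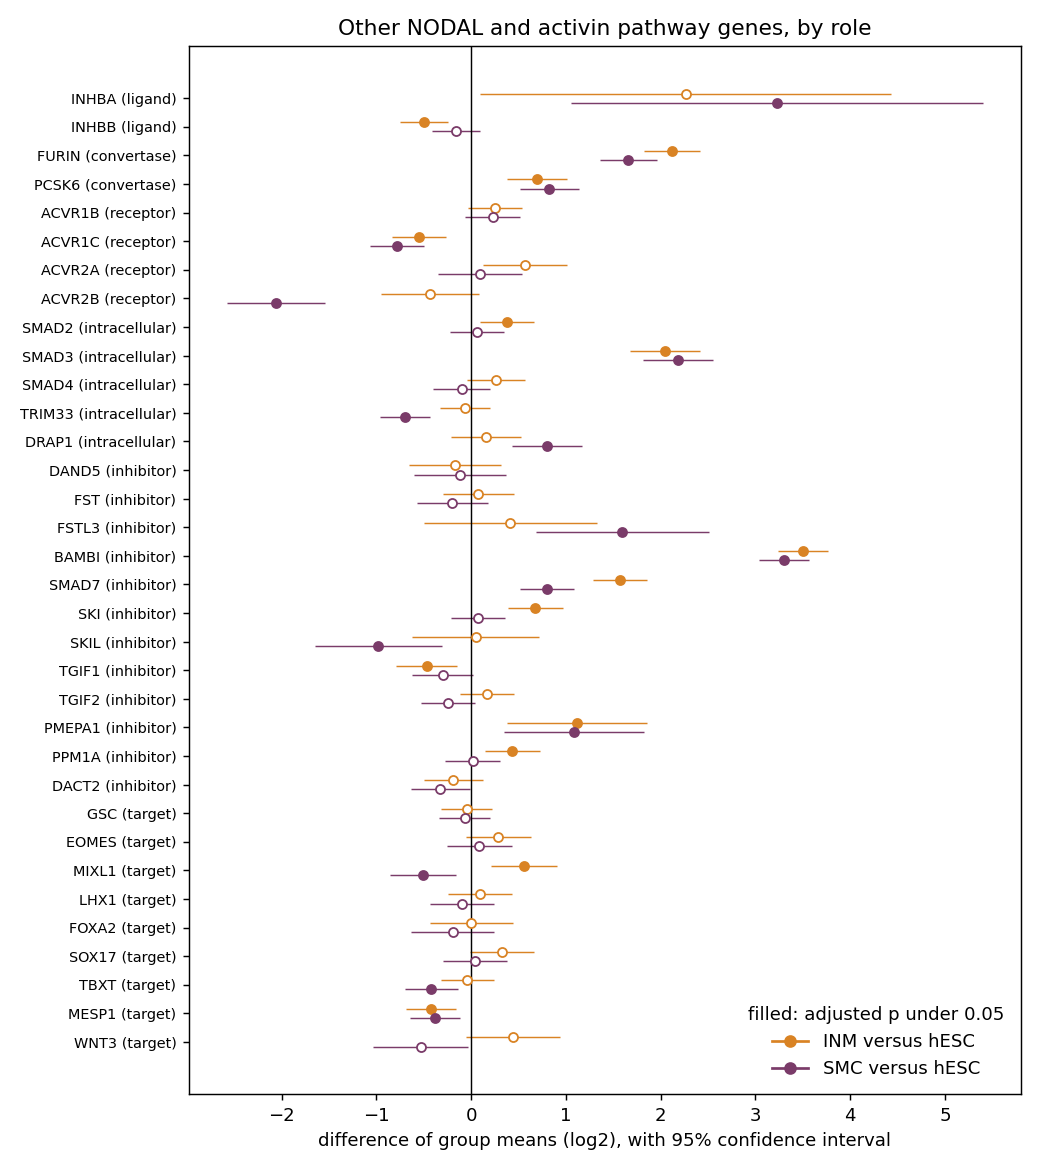
Differences of group means (log2, horizontal axis) with 95% confidence intervals for the 34 other NODAL and activin pathway genes, ordered by role, in INM against hESC and in SMC against hESC. Filled circles are called at an adjusted p under 0.05. BAMBI, SMAD3 and FURIN lie to the right in both comparisons and ACVR2B to the left in SMC, while the streak and endoderm genes lie near 0.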

How the data were processed

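Total RNA of 6 samples was measured on 1 Affymetrix array each. The authors deposited log2 expression values for 33297 probe sets, which ran from 1.36 to 14.1. The submitters' processing notes name RMA and limma. Versions, settings, centring and genome build are not stated in the labels used here. In the annotation table of the platform 19460 probe sets carried 1 symbol, 1754 several and 12083 none here. Entrez identifiers served to update the symbols (19429 matched), and 1 probe set, the one of highest mean signal, stood for each of 18417 genes.

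The deposited values were fitted without further normalization or filter. With limma 3.58.1 (R 4.3.3), 3 group means were estimated from the 6 arrays together by lmFit, and eBayes moderated the variances (3 residual and 3.56 prior degrees of freedom). Two-sided p-values received a Benjamini-Hochberg adjustment across the 18417 genes, with calls made below 0.05. With 2 arrays against 2, the smallest p of an exact permutation test is 0.333. The number of arrays limits the precision. The fit was tested on simulated data.

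Groups and replicate numbers came from the sample titles. The 7 genes, the pathway lists and the markers were chosen with earlier results of these data known. Named genes are the 7 members, CRIPTO3, the listed pathway genes called in any comparison and, for each member, the 3 genes nearest in profile. The contrast between the steps was added after the data were seen. Alternatives were median centring and quantile normalization, both over the 18417 genes tested, a low-signal filter (lowest 25% by mean) and averaged probe sets. Others were a trended robust variance, array weights, fits of 2 groups, the replicate block and leaving out each array.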

Additional observations from a re-analysis of the deposited data

How the results depend on the processing

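Leaving out 1 array in turn left 3 to 6 of the 7 genes called lower in INM against hESC (4 with all arrays), 1 to 4 lower and 0 to 1 higher in SMC against INM (1 and 0), 5 to 6 lower in SMC against hESC (6), and 5 to 7 differing between any stages (6). For the 34 other pathway genes the ranges were 0 to 4 lower and 5 to 15 higher in INM against hESC (4 and 10), 2 to 15 lower and 0 to 4 higher in SMC against INM (8 and 1), and 3 to 8 lower and 5 to 9 higher in SMC against hESC (7 and 9). For all genes they were 1220 to 3491 lower and 1719 to 4337 higher in INM against hESC, 563 to 3515 lower and 571 to 2628 higher in SMC against INM, and 1649 to 4573 lower and 2154 to 4627 higher in SMC against hESC. Changes ran from -1.28 to -0.74 for NODAL, -0.41 to -0.26 for LEFTY2 and -1.88 to 0.030 for CER1 in INM against hESC. They ran from -1.12 to -0.29 for CRIPTO, -0.54 to 0.24 for GDF3, -0.63 to 0.033 for FOXH1 and -0.11 to 1.81 for CER1 in SMC against INM, and from -1.41 to -0.86 for NODAL in SMC against hESC.

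With median centring LEFTY1 and LEFTY2 changed by -0.60 and -0.42 in INM against hESC, with quantile normalization by -0.71 and -0.59, and all 4 values were called. In fits of 2 groups, which have fewer samples, 2 other pathway genes were called lower and 6 higher in INM against hESC, 5 lower and 0 higher in SMC against INM, and 1289 of all genes lower in SMC against INM (2043 with all arrays). Array weights gave 2 lower in INM against hESC and 2 higher in SMC against INM, and median centring also gave 2 higher in SMC against INM. The cause was not tested. SMAD2 reversed to -0.041 in INM against hESC with probe sets averaged. INHBA in SMC against INM ran from -0.67 to 2.59 with 1 array left out, and PMEPA1 from -0.55 to 0.49. Of 1855 values of 42 single genes, 1678 kept their side of the threshold, 129 lost a call and 45 gained one. Another 3 changed sign with a call in the main fit or the alternative. Uncalled values that changed sign were counted among the 1678, as for CER1 in INM against hESC (0.030 without INM replicate 1).

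Same-numbered arrays did not deviate together (correlations of 0.07 for INM and hESC, -0.07 for SMC and INM and -0.12 for SMC and hESC). With the replicate block, 4, 1 and 6 of the 7 genes were again called lower in INM against hESC, SMC against INM and SMC against hESC, and 2439 of all genes were called lower in INM against hESC.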

Other observations

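Some pathway and stem cell genes were read only by probe sets annotated to several genes, which entered no test. A probe set for NANOG and NANOGP1 read 10.67 and 10.80 on the hESC arrays, 5.95 and 7.69 on the INM arrays and 5.55 and 5.94 on the SMC arrays. A probe set for POU5F1 and 3 of its related genes read 12.20 and 12.22 on the hESC arrays, 7.70 and 10.07 on the INM arrays and 6.13 and 6.24 on the SMC arrays. Both were higher on INM replicate 2 than on INM replicate 1, as were CRIPTO and GDF3. A probe set for CFC1 and CFC1B, co-receptor genes related to CRIPTO, read 6.40 and 6.41 on the hESC arrays, 6.52 and 6.81 on the INM arrays and 6.14 and 6.40 on the SMC arrays. A probe set for TMEFF1, a membrane protein that binds CRIPTO, and MSANTD3-TMEFF1 read 10.53 and 10.63 on the hESC arrays, 10.36 and 10.11 on the INM arrays and 8.38 and 8.07 on the SMC arrays.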
